A study of Homo sapiens with 4 samples.

Results

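The genes described here are the WNT ligands and R-spondins, their receptors and co-receptors, the secreted antagonists, and the regulators and TCF/LEF transcription factors on which the pathway converges. They were 60 of the 60623 genes in the count tables and were chosen by gene symbol, with no measured value in the rule. The choice was made with earlier results of these data known. They comprised 19 WNT ligands, 4 R-spondins, 10 Frizzled receptors, 4 co-receptors (LRP5, LRP6, ROR1 and ROR2), 3 LGR receptors, 2 membrane E3 ligases (RNF43 and ZNRF3), 10 secreted antagonists of the DKK, SFRP and WIF kinds, 4 cytosolic regulators (APC, AXIN1, AXIN2 and NKD1) and 4 TCF/LEF factors.

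BICR10, the source of the RNA, is a cell line of human head and neck cancer, and the study asked how the transcriptome changes when YEATS2, a reader of crotonylated histones, is depleted. Cells were transduced with lentivirus that carried either a control hairpin (shControl) or a hairpin against YEATS2 (shYEATS2) and were selected with puromycin at 1 µg/mL for 3 days, so both conditions carried a hairpin vector and had been through the same selection. Each condition had 2 libraries of polyadenylated RNA, and the values are counts of read pairs on each gene. The methods describe independent biological replicates for experiments in general, while the labels of these libraries name no separate cultures, so the p-values measure the spread between these libraries. Which of the study's YEATS2 hairpins each shYEATS2 library carried is not given in the sources used here.

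The libraries held 47297970 and 39824898 counts on genes in shControl and 24072396 and 11334133 in shYEATS2, so depth cannot be told apart from the knockdown. Levels are given as CPM, counts scaled to a common library size, after TMM, a normalization that assumes that most genes do not change. The targeted gene YEATS2 stood at 66.1 and 66.7 CPM in shControl and at 29.2 and 29.1 CPM in shYEATS2, a log2 fold change of −1.19 ± 0.08 (standard error). The epithelial and squamous markers gave a mixed picture. The keratin KRT8 (269 and 264 CPM in shControl, 123 and 115 CPM in shYEATS2) and SFN (130 CPM in both shControl libraries, 136 and 126 CPM in shYEATS2) were well expressed. CDH1, the epithelial cadherin, stood at 0.353 and 0.318 CPM in shControl and 2.84 and 2.12 CPM in shYEATS2, and TP63, a squamous transcription factor, had at most 0.255 CPM in any library. The largest fall among those tested was that of KRT5, from 16.4 and 14.95 CPM to 1.03 and 1.36 CPM. The largest rise was that of CLDN1, from 0.639 and 0.715 CPM to 12.4 and 12.7 CPM. DSP and KRT14 were also lower, with log2 fold changes of −1.97 and −2.3. The summed level of 8 fibroblast markers was 6260 and 6185 CPM in shControl and 2121 and 1996 CPM in shYEATS2. Most of it came from the collagen genes COL1A1 (means of 2796 CPM in shControl and 891 CPM in shYEATS2) and COL1A2 (2616 and 822 CPM). Of the 7 tested, 6 were lower (85.7%, against 23.6% of all tested genes). FAP was not called (12.7 and 13.8 CPM against 13.4 and 10.6 CPM), and THY1 had at most 0.287 CPM in any library. The 11 epithelial and squamous markers summed to 534 and 529 CPM against 356 and 332 CPM. Of the 9 tested, 6 were lower (66.7%) and 2 higher (22.2%, against 22.6% of all tested genes). Of 6 leukocyte markers, 5 were under 1 CPM in every library. The part of these marker differences in the results below was not tested, and fewer cells of a type cannot be told apart from less RNA per cell in bulk RNA.

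WNT proteins are lipid-modified secreted ligands that bind Frizzled receptors together with a co-receptor. Binding to LRP5 or LRP6 recruits AXIN to the membrane, which stops the destruction complex of APC and AXIN from marking β-catenin for degradation, and β-catenin then acts with TCF/LEF factors on target genes. WNT5A and WNT5B are best known for β-catenin-independent signalling through ROR receptors, R-spondins bound to LGR receptors keep RNF43 and ZNRF3 from removing Frizzled from the surface, and DKK and SFRP proteins bind co-receptors or ligands.

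Of the 60 members, 37 had enough counts for a test and 23 did not, 7 of them with no count in any library. Among the 37, 16 were lower and 8 were higher in shYEATS2 by edgeR's quasi-likelihood test with a Benjamini-Hochberg adjusted p under 0.05, and 13 were not called. The lower members made up 43.2% of those tested, against 23.6% of the 17058 genes tested in all, and the higher members 21.6% against 22.6%. In either direction 46.2% of all tested genes were called, so a call was common in this comparison. The median log2 fold change of the 37 was −0.02 and that of all tested genes −0.01. The shYEATS2 values were both under the lower control value for 18 members (48.6% of the 37, against 36.3% of all tested genes) and both over the higher one for 11 (29.7% against 35.3%). Of the 37 tested, 36 passed the level of the count filter, 0.313 CPM, in both conditions. LGR6, counted among the 16 lower members, passed it in shControl alone.

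Most of these changes were modest in size. A change of at least 2-fold was left for 2 lower members, LGR6 and SFRP1, and 2 higher ones, WNT9A and FZD9. Of these, LGR6 was tested only through its counts in shControl. Among all tested genes, 631 of the 4019 called lower and 1022 of the 3857 called higher had a change of at least 2-fold. Most calls were thus under 2-fold among all tested genes too, and this was not particular to the members. DESeq2 called 13 members lower (background 16.5% of its tested genes) and 2 members higher, WNT9A and AXIN1 (background 13.9%). The calls of 12 members held in each of the 13 alternative fits in which they could be tested, and these were 10 lower members (FZD1, FZD6, FZD8, LGR4, LGR6, LRP5, SFRP1, AXIN2, NKD1 and LEF1) and 2 higher members (WNT9A and AXIN1). Leaving out any one library kept 15 of the 24 calls, and the number called higher fell to 4 without shControl 1, without shControl 2 or without shYEATS2 1 and rose to 10 without shYEATS2 2. Scaling by library totals alone moved the median of all tested genes from −0.01 to 0.13 on the log2 scale. It gave 13 lower and 12 higher members, and 2567 lower and 5441 higher among all tested genes. Thinning every library to the smallest total ended the calls of WNT7B, FZD2, FZD9, RNF43, SFRP2, TCF7 and TCF7L2 and left LGR6 with too few counts for a test, while LRP6 gained a call, and testing without the count filter ended those of FZD2, FZD5 and APC.

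**Figure D1:**
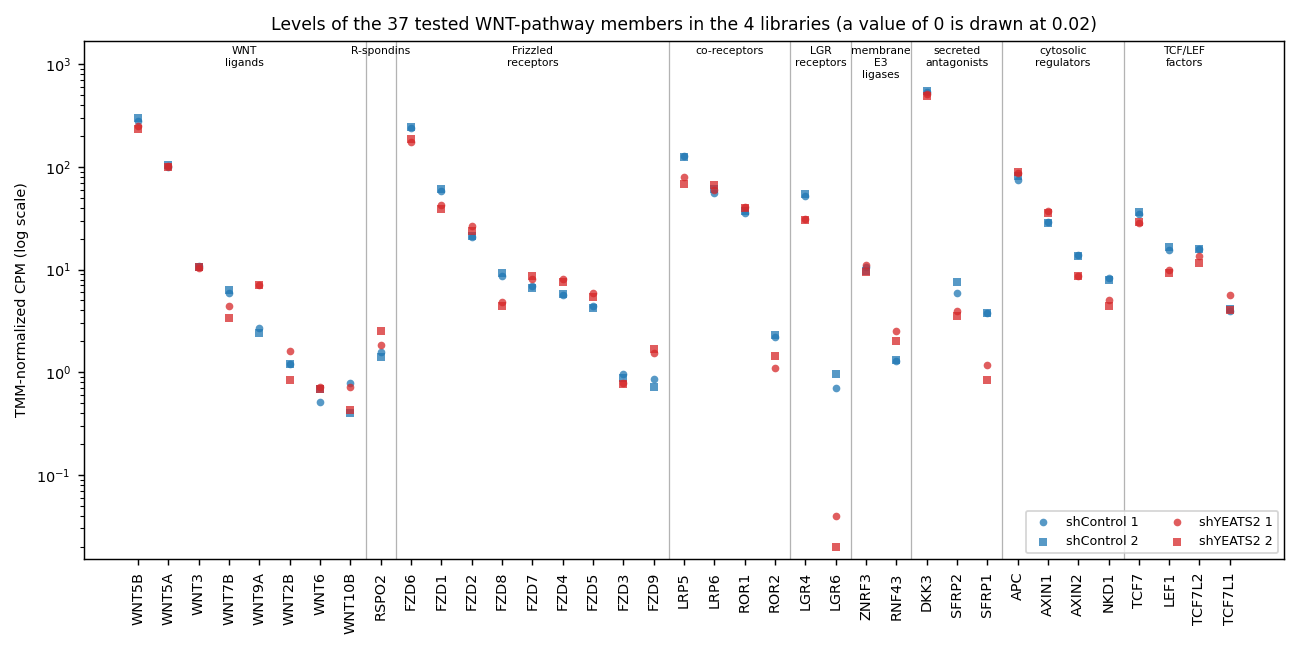
Level of each of the 37 tested members in each library, in TMM-normalized CPM on a log axis, grouped by role, with blue points for shControl and red points for shYEATS2 and a circle for library 1 and a square for library 2. LGR6 and SFRP1 show the widest downward gap between the conditions and WNT9A the widest upward gap, while the points of WNT5A and WNT3 lie on top of each other.

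Among the ligands, WNT5B and WNT5A made up nearly all of the WNT RNA, and the tested ligand with the largest change was WNT9A, a minor one. Per kilobase of exon, which corrects for gene length, WNT5B had a mean of 68.8 CPM in shControl, WNT5A 14.2, WNT3 1.97, WNT7B 1.20 and WNT9A 0.637. Of the 19 ligands 8 were tested, 2 were lower (WNT5B and WNT7B), 1 was higher (WNT9A) and 5 were not called. The lower ones were 25% of those tested and the higher one 12.5%, against 23.6% and 22.6% of all tested genes.

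WNT9A, a ligand of chondrocytes and joints that can signal through β-catenin, stood at 2.67 and 2.43 CPM in the shControl libraries and at 7.14 and 7.13 CPM in the shYEATS2 libraries. The conditions did not overlap, and both shYEATS2 libraries were well above both controls. The log2 fold change was 1.48 ± 0.18 (standard error), or 279% of the control level, and edgeR's quasi-likelihood test gave an adjusted p of 2.4e-10. WNT9A (ENSG00000143816) lies on the minus strand at chr1:227918656-227947932 of GRCh38, and WNT3A, its neighbour 59.1 kb away, had at most 7 counts in any library. WNT9A was 0.785% and 0.670% of the summed WNT level per kilobase in shControl and 2.25% and 2.37% in shYEATS2, so it remained a small share of the ligand RNA.

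WNT5B (ENSG00000111186, plus strand of chr12:1529891-1647212) stood at 281 and 303 CPM in shControl and at 250 and 237 CPM in shYEATS2. Both knockdown libraries were below both controls, by a small margin. The log2 fold change was −0.26 ± 0.06, adjusted p = 0.00026 by edgeR's quasi-likelihood test, and the call was lost with library totals alone (−0.12). Its close paralog WNT5A stood at 99.4 and 104 CPM in shControl and at 103 and 101 CPM in shYEATS2, with overlapping conditions and a log2 fold change of 0.00 ± 0.06. The ratio of WNT5B to WNT5A counts within a library, which no scaling of libraries can change, was 2.82 and 2.90 in shControl and 2.43 and 2.34 in shYEATS2.

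WNT7B, which signals to brain endothelium and in squamous epithelia, stood at 5.86 and 6.35 CPM in shControl and 4.38 and 3.39 CPM in shYEATS2, again without overlap. Its log2 fold change was −0.60 ± 0.17, adjusted p = 0.0027 by edgeR's quasi-likelihood test, but DESeq2 gave an adjusted p of 0.077. WNT3, a ligand that acts through β-catenin, lay between 10.4 and 10.7 CPM in all 4 libraries, and its log2 fold change was −0.02 ± 0.12. The other tested ligands, WNT2B, WNT6 and WNT10B, were each under 2 CPM in every library and their conditions overlapped. WNT2B shares 2665 exon bases with ST7L on the opposite strand, which stood between 10.9 and 13.1 CPM, and the strand setting of the counting is not given. The remaining 11 ligands had at most 16 counts in any library, a level that WNT10A reached in shYEATS2 1 and WNT11 in shControl 1. WNT1, WNT7A and WNT8B had no count, which at 3 counts allows up to 0.0661, 0.0794, 0.118 and 0.255 CPM in shControl 1, shControl 2, shYEATS2 1 and shYEATS2 2 respectively, for counting error only.

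Among the R-spondins, secreted proteins that raise the amount of Frizzled at the cell surface, RSPO2 was the one with enough counts for a test. It stood at 1.59 and 1.40 CPM in shControl and 1.85 and 2.55 CPM in shYEATS2. Although the conditions did not overlap, the log2 fold change of 0.50 ± 0.29 did not pass the test. RSPO3 had at most 2 counts in a library, and RSPO1 and RSPO4 had none.

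The Frizzled receptors, the membrane-spanning proteins that bind WNT ligands, moved in both directions. The most abundant, FZD6 and FZD1, fell together with FZD8, while FZD2, FZD4, FZD5 and FZD9 were higher, and FZD3 and FZD7 were not called. Per kilobase of exon, FZD6 had a mean of 59.8 CPM in shControl, FZD1 8.72, FZD2 5.54, FZD8 2.23 and FZD7 1.48, and the other tested members were under 1. FZD10 had at most 2 counts in a library and was not tested.

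FZD6 (ENSG00000164930, plus strand of chr8:103298433-103332866), which is best known from planar cell polarity in skin and hair, stood at 241 and 245 CPM in shControl and at 176 and 188 CPM in shYEATS2. FZD1 (ENSG00000157240, plus strand of chr7:91264433-91271326) stood at 58.9 and 61.3 CPM in shControl and at 42.4 and 39.0 CPM in shYEATS2. Neither gene had overlapping conditions. The log2 fold changes were −0.42 ± 0.06 for FZD6 and −0.55 ± 0.08 for FZD1, with adjusted p of 2.8e-08 and 5.2e-09 by edgeR's quasi-likelihood test. FZD8 (ENSG00000177283, minus strand of chr10:35638247-35642296) stood at 8.73 and 9.29 CPM in shControl and at 4.82 and 4.41 CPM in shYEATS2, the largest fall of the family among the tested members. Its log2 fold change was −0.95 ± 0.15, adjusted p = 2.8e-07 by edgeR's quasi-likelihood test.

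The Frizzled receptors that were higher had less certain changes, since DESeq2 gave these 4 adjusted p between 0.13 and 0.30. FZD2 stood at 20.6 and 21.3 CPM in shControl and 26.6 and 23.8 CPM in shYEATS2, a log2 fold change of 0.28 ± 0.09 with an adjusted p of 0.011 by edgeR's quasi-likelihood test. FZD4, the receptor of the retinal ligand norrin, stood at 5.62 and 5.77 CPM against 8.17 and 7.55 CPM (0.48 ± 0.15, adjusted p = 0.0056 by the same test). FZD5 stood at 4.39 and 4.26 CPM against 5.96 and 5.43 CPM (0.41 ± 0.17, adjusted p = 0.04). In each of these the shYEATS2 libraries lay above both controls. FZD9, which lies at chr7:73433778-73436120, stood at 0.860 and 0.715 CPM against 1.54 and 1.70 CPM, a log2 fold change of 1.01 ± 0.35 (adjusted p = 0.013 by edgeR's quasi-likelihood test). All 4 calls depended on single libraries, and without shYEATS2 1 the log2 fold changes were 0.17 for FZD2, 0.39 for FZD4, 0.31 for FZD5 and 1.08 for FZD9, with adjusted p between 0.062 and 0.24 for 3 of them and 0.31 for FZD5 in edgeR's quasi-likelihood test. The calls of FZD2 and FZD5 were also lost without either shControl library, that of FZD4 without shControl 1 (0.45) and that of FZD9 without shControl 2 (0.88). FZD7 stood at 6.94 and 6.64 CPM against 8.01 and 8.57 CPM, with a log2 fold change of 0.28 ± 0.14 that did not pass the test but was called with library totals alone (0.41). FZD4 shares 1399 exon bases with PRSS23 on the opposite strand, and PRSS23 was lower in shYEATS2 (225 and 241 CPM against 164 and 171 CPM). Reads from the shared bases cannot be assigned with certainty when the strand setting is unknown.

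The make-up of the Frizzled family differed slightly between the conditions. FZD6 took 75.3% and 75.04% of the summed Frizzled level per kilobase in shControl and 69.8% and 72.6% in shYEATS2, and FZD2 took 6.93% and 7.01% against 11.3% and 9.85%. The ratio of FZD1 to FZD2 counts was 2.85 and 2.89 in shControl and 1.59 and 1.64 in shYEATS2. The ratio of FZD8 to FZD5 counts was 1.99 and 2.18 in shControl, where FZD8 had the higher count, and 0.808 and 0.813 in shYEATS2, where FZD5 had it. Summed over the family, the Frizzled level per kilobase was 78.8 and 80.2 CPM in shControl and 62.2 and 63.8 CPM in shYEATS2.

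**Figure D2:**
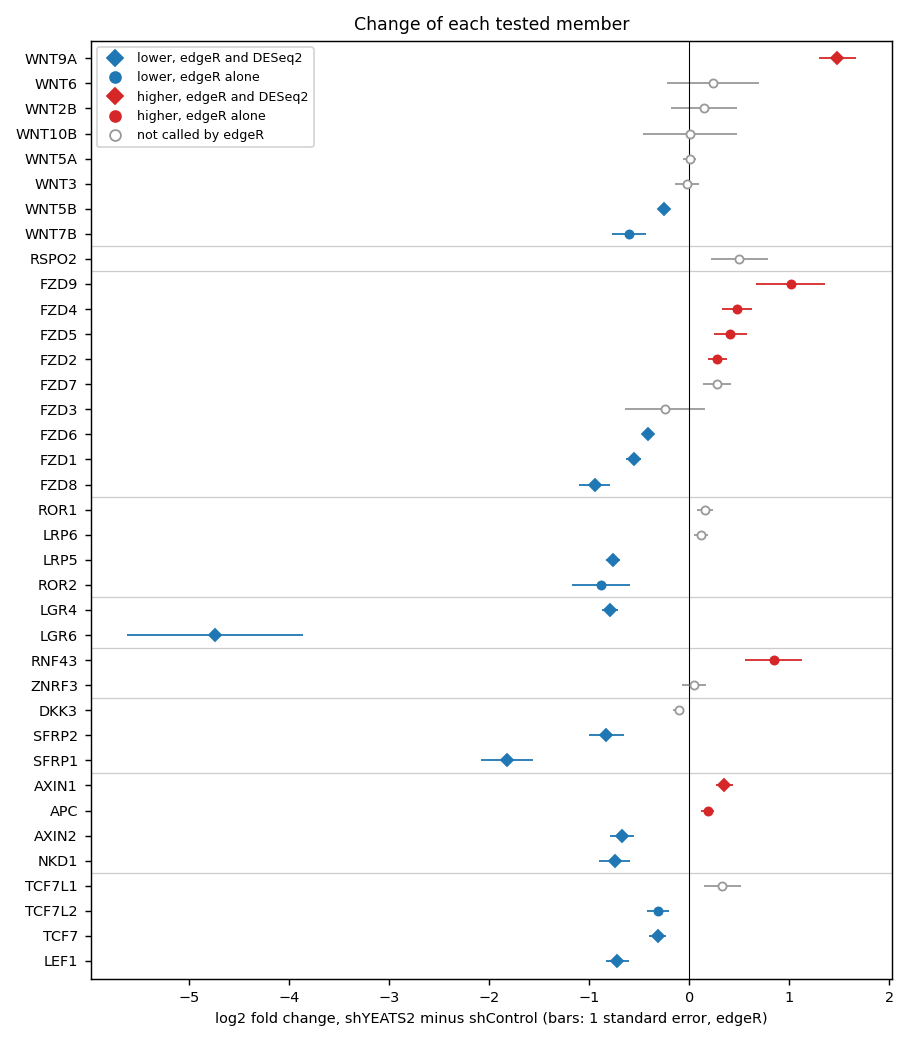
Log2 fold change of each tested member (shYEATS2 minus shControl, horizontal axis) with 1 standard error from edgeR, grouped by role from ligands at the top to TCF/LEF factors at the bottom, in blue where called lower, red where called higher and open grey where not called, with diamonds where DESeq2 made the same call. LGR6 lies far to the left at −4.74, SFRP1 follows at −1.82, WNT9A is farthest to the right at 1.48, and within the Frizzled and cytosolic groups members lie on both sides of 0.

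The sequences just upstream of an annotated start are shown for the 4 members with the largest changes among tested ligands and receptors. They are the 250 bases before the RefSeq start on GRCh38.p14, 5′ to 3′ on the strand of the gene, in windows that hold no annotated exon of GENCODE release 44. Capitals mark GGGCGG, the core of the GC box bound by SP1-like factors, or its reverse complement CCGCCC, and CTTTG, the core of the sequence bound by TCF/LEF factors, or its reverse complement CAAAG. WNT9A and FZD9 were higher, FZD8 and LGR6 were lower, and for LGR6 the most upstream of its RefSeq starts is given. SFRP1, a secreted antagonist, changed more than FZD8 and FZD9 (log2 fold change −1.82). It had no window in the RefSeq set used and is not shown. FZD8 and WNT9A lie on the minus strand and FZD9 and LGR6 on the plus strand.
WNT9A promoter, chr1:227947933-227948182: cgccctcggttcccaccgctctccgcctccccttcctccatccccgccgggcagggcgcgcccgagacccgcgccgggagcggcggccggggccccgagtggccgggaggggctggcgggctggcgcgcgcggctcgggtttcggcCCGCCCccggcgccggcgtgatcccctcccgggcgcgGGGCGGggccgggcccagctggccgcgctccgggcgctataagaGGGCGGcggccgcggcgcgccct
FZD9 promoter, chr7:73433528-73433777: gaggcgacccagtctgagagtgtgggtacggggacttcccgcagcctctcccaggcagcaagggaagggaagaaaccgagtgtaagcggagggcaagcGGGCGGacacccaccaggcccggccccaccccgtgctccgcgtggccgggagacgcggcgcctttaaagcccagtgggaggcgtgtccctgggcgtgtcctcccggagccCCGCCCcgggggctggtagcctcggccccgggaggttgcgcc
FZD8 promoter, chr10:35642297-35642546: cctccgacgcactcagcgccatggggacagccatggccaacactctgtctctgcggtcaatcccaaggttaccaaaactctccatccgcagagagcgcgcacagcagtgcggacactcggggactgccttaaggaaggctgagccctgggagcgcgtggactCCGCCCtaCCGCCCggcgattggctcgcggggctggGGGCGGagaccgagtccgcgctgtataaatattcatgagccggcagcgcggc
LGR6 promoter, chr1:202193549-202193798: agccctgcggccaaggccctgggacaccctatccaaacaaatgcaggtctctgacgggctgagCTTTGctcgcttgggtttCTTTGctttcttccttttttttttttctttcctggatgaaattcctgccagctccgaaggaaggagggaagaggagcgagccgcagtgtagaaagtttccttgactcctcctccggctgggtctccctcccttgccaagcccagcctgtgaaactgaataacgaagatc

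WNT9A and FZD8 each held 3 matches to GGGCGG in these 250 bases and FZD9 held 2, and LGR6 held 2 matches to CTTTG and none to GGGCGG. The RefSeq table held 52 such windows of 250 bases for 42 members. GGGCGG on either strand occurred in 35 of these 52 windows and in 42.6% of the windows of the same length before all 35116 starts of the table, and CTTTG in 14 of 52 and in 42.1%. Among the windows of lower members, 9 of 17 held GGGCGG and 7 of 17 held CTTTG, and among those of higher members 6 of 9 held GGGCGG and 2 of 9 held CTTTG. These matches describe letters in a window and are not evidence of binding.

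The co-receptors did not move together: LRP5 and ROR2 were lower, and their paralogs LRP6 and ROR1 were not called. LRP5 (ENSG00000162337, plus strand of chr11:68312591-68449275), the most abundant co-receptor with a mean of 20.6 CPM per kilobase in shControl, stood at 128 and 126 CPM in shControl and at 79.6 and 68.9 CPM in shYEATS2. Both knockdown libraries were far below the controls. The log2 fold change was −0.76 ± 0.07, adjusted p = 2.4e-15 by edgeR's quasi-likelihood test, the smallest adjusted p of any member. LRP6 stood at 55.5 and 60.7 CPM in shControl and 60.2 and 66.4 CPM in shYEATS2, with overlapping conditions and a log2 fold change of 0.12 ± 0.07 that did not pass the test. It was called higher without shYEATS2 1 (0.18), with library totals alone (0.25) and with thinned counts (0.32). The ratio of LRP5 to LRP6 counts was 2.31 and 2.07 in shControl and 1.32 and 1.04 in shYEATS2. LRP5 thus took 65.4% and 63.4% of the co-receptor level per kilobase in shControl and 51.7% and 47.0% in shYEATS2, and LRP6 took 16.9% and 18.2% against 23.3% and 27.03%.

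ROR2, a receptor tyrosine kinase for WNT5A, stood at 2.23 and 2.30 CPM in shControl and at 1.11 and 1.44 CPM in shYEATS2, without overlap. The log2 fold change was −0.88 ± 0.29 (adjusted p = 0.0099 by edgeR's quasi-likelihood test), while DESeq2 gave an adjusted p of 0.16 and the call was lost without shYEATS2 1 (−0.66). ROR1, far more abundant, stood at 35.3 and 37.1 CPM in shControl and 40.5 and 39.7 CPM in shYEATS2. These values do not overlap, but its log2 fold change of 0.15 ± 0.08 did not pass the test, and it was called with library totals alone (0.29). ROR1 took 16.6% and 17.2% of the co-receptor level per kilobase in shControl and 24.2% and 24.9% in shYEATS2.

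**Figure D3:**
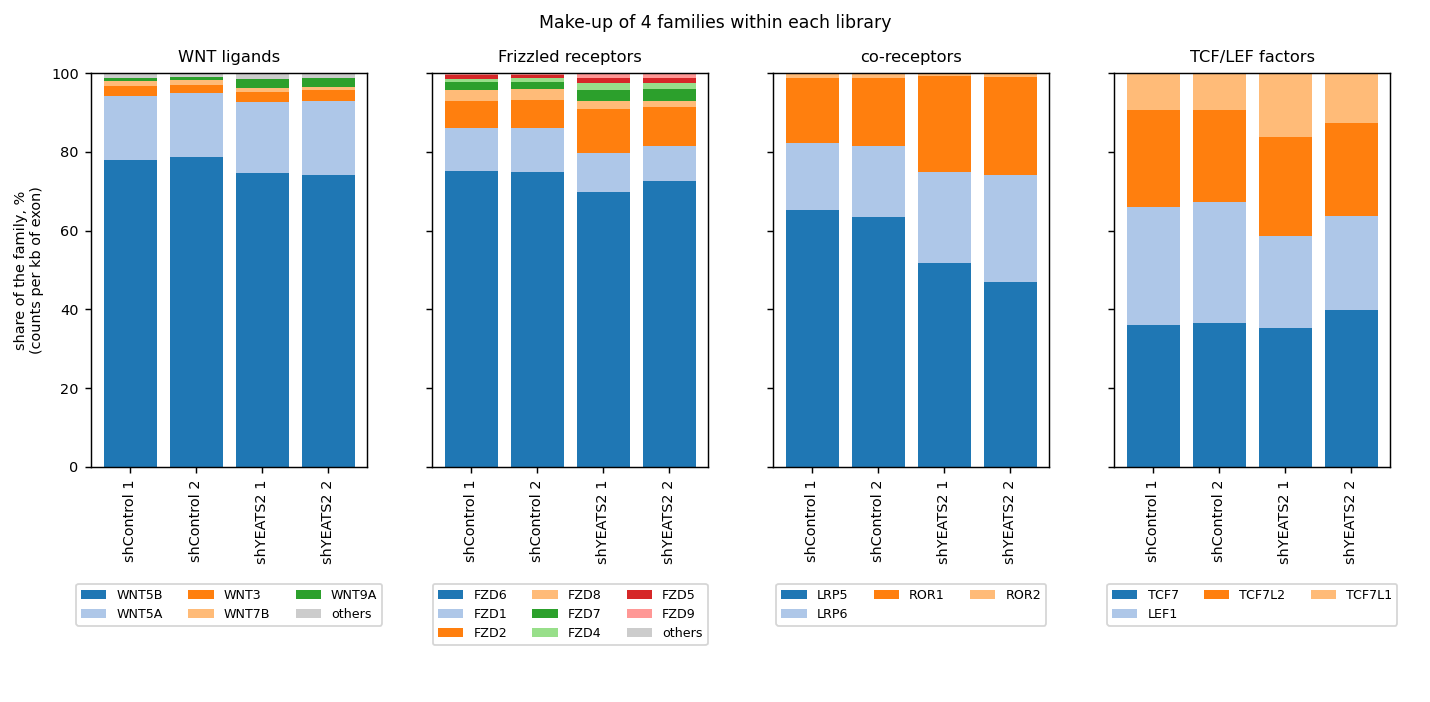
Share of each gene in the summed level of its family within each library, in percent of counts per kilobase of exon, for WNT ligands, Frizzled receptors, co-receptors and TCF/LEF factors, with each bar adding up to 100%. The LRP5 segment shrinks from 65.4% and 63.4% in shControl to 51.7% and 47.0% in shYEATS2 and that of LEF1 from 30.1% and 30.8% to 23.2% and 23.9%, while WNT5B and FZD6 keep the largest segment of their families in every library.

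Of the LGR receptors, which bind R-spondins, LGR4 was lower, as were 23.6% of all tested genes. LGR6, the other one tested, entered the test only through its shControl counts. LGR4 (ENSG00000205213, minus strand of chr11:27365961-27472790) stood at 52.0 and 54.8 CPM in shControl and at 31.1 and 30.5 CPM in shYEATS2, a log2 fold change of −0.79 ± 0.08 (adjusted p = 2.8e-13 by edgeR's quasi-likelihood test). LGR6 (ENSG00000133067, plus strand of chr1:202193799-202319781), a marker of stem cells in hair follicle and tongue epithelium, had 32 and 36 counts in shControl and 1 and 0 counts in shYEATS2. Nearly every LGR6 count thus came from the control libraries. From the summed counts and the library sizes, 3.29% of the control level remained, with an exact 95% interval of 0.0822% to 19.0% that covers counting error only. The fitted log2 fold change was −4.74 ± 0.88, which depends on the prior count of the fit and was −7.71 without shYEATS2 1. LGR6 passed the count filter through shControl alone, the condition where it was high, so its adjusted p is not given. LGR5, the stem-cell marker of the gut, had at most 2 counts in a library. LGR4 made up at least 97.6% of the LGR level per kilobase in every library, and the sum fell from 8.34 and 8.83 CPM to 4.92 and 4.81 CPM.

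Of the membrane E3 ligases, which remove Frizzled from the cell surface, RNF43 was higher and ZNRF3 was not called. RNF43 stood at 1.28 and 1.32 CPM in shControl and 2.53 and 2.04 CPM in shYEATS2, without overlap. Its log2 fold change was 0.84 ± 0.28, adjusted p = 0.011 by edgeR's quasi-likelihood test, but DESeq2 gave 0.17 and the call was lost without shYEATS2 1 (0.63). RNF43 shares 4326 exon bases on its own strand with the annotated gene ENSG00000285897, which had at most 3 counts in a library. Pairs on shared bases could have been tallied as ambiguous and given to neither gene, so the level of RNF43 may be understated. ZNRF3, the more abundant of the pair, stood at 10.5 and 9.71 CPM against 11.1 and 9.50 CPM, and its conditions overlapped.

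The secreted antagonists were dominated by DKK3, and the SFRP members with enough counts fell. DKK3 (mean 45.3 CPM per kilobase in shControl), a Dickkopf family member that, unlike DKK1, is not known as a strong LRP inhibitor, stood at 540 and 544 CPM in shControl and 511 and 495 CPM in shYEATS2. The shYEATS2 values were lower in both libraries, but the log2 fold change of −0.11 ± 0.06 did not pass the test (adjusted p = 0.12 by edgeR's quasi-likelihood test), turned to 0.026 with library totals alone and was called at −0.15 without shYEATS2 1 and at −0.16 without the count filter. DKK3 shares 5681 exon bases with USP47 on the opposite strand, whose log2 fold change was −0.02. DKK3 took 92.2% and 90.7% of the antagonist level per kilobase in shControl and 94.97% and 95.4% in shYEATS2.

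SFRP1 (ENSG00000104332, minus strand of chr8:41261962-41309473), a secreted protein with a Frizzled-like domain that binds WNT ligands, stood at 3.81 and 3.76 CPM in shControl and at 1.18 and 0.849 CPM in shYEATS2. The conditions were far apart. Its log2 fold change was −1.82 ± 0.26, adjusted p = 2e-08 by edgeR's quasi-likelihood test, and the summed counts left 28.4% of the control level (exact 95% interval 19.9% to 39.6%, counting error only). SFRP2 (ENSG00000145423, minus strand of chr4:153780591-153789083) stood at 5.93 and 7.57 CPM in shControl and at 3.91 and 3.56 CPM in shYEATS2, with a log2 fold change of −0.83 ± 0.17 and an adjusted p of 4.9e-05 by edgeR's quasi-likelihood test. Both SFRP genes fell alongside 6 of the 7 tested fibroblast markers given above, and the part of those markers was not tested. SFRP4 had 4 and 7 counts in shControl and none in shYEATS2, too few for a test, and its exact interval reached up to 89.3% of the control level. The other antagonists, DKK1, DKK2, DKK4, SFRP5, FRZB and WIF1, had at most 3 counts in any library.

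All 4 cytosolic regulators were called, in opposite directions, where 46.2% of all tested genes were called. AXIN2 (ENSG00000168646, minus strand of chr17:65528563-65561648), a scaffold of the destruction complex and a widely used readout of β-catenin signalling, stood at 13.9 and 13.7 CPM in shControl and at 8.61 and 8.74 CPM in shYEATS2. NKD1 (ENSG00000140807, plus strand of chr16:50548396-50649249), an inhibitor that binds Dishevelled and is itself a target of the pathway, stood at 8.33 and 7.91 CPM against 5.09 and 4.41 CPM. Neither had overlapping conditions, and both were lower by edgeR's quasi-likelihood test, with log2 fold changes of −0.67 ± 0.12 (adjusted p = 3.6e-06) and −0.75 ± 0.15 (adjusted p = 3.9e-05). AXIN2 shares 1316 exon bases on its own strand with the annotated gene ENSG00000266076, which had at most 1 count in a library. As for RNF43, pairs on shared bases could have been given to neither gene.

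AXIN1 (ENSG00000103126, minus strand of chr16:287440-352723), the paralog of AXIN2 that is not induced by the pathway, was higher. It stood at 29.1 and 28.4 CPM in shControl and 37.5 and 35.3 CPM in shYEATS2, a log2 fold change of 0.35 ± 0.08 with an adjusted p of 0.00037 by edgeR's quasi-likelihood test. The ratio of AXIN2 to AXIN1 counts was 0.480 in both shControl libraries and 0.229 and 0.248 in shYEATS2, so the balance between the paralogs shifted in every knockdown library. APC, the tumour suppressor of the destruction complex, stood at 74.9 and 81.2 CPM in shControl and 87.2 and 90.1 CPM in shYEATS2. Its log2 fold change of 0.18 ± 0.07 passed edgeR's quasi-likelihood test at an adjusted p of 0.022, but DESeq2 gave 0.11, and the call was lost without shControl 1 (0.12) or without shControl 2 (0.23).

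Among the TCF/LEF factors, the DNA-binding partners of β-catenin, LEF1, TCF7 and TCF7L2 were lower and TCF7L1 was not called. LEF1 (ENSG00000138795, minus strand of chr4:108047545-108168956) stood at 15.4 and 16.5 CPM in shControl and at 9.87 and 9.33 CPM in shYEATS2. The separation was clear, with a log2 fold change of −0.72 ± 0.12 and an adjusted p of 3.5e-07 by edgeR's quasi-likelihood test. TCF7 stood at 34.6 and 36.8 CPM against 28.3 and 29.3 CPM (−0.31 ± 0.08, adjusted p = 0.0015 by edgeR's quasi-likelihood test), and its call was lost without shControl 2 (−0.28) and with library totals alone (−0.18). TCF7L2 stood at 15.8 CPM in both shControl libraries and at 13.4 and 11.6 CPM in shYEATS2 (−0.31 ± 0.11, adjusted p = 0.016 by edgeR's quasi-likelihood test). DESeq2 did not call TCF7L2, and its call was also lost with library totals alone (−0.18), without shControl 1 (−0.32), without shControl 2 (−0.32) and without shYEATS2 2 (−0.24). TCF7L1, best known as a repressor, stood at 3.95 and 4.10 CPM against 5.68 and 4.07 CPM, with overlapping conditions, and was called higher at 0.49 without shYEATS2 2 and at 0.47 with library totals alone. TCF7 shares 210 exon bases with SKP1 on the opposite strand, and SKP1 was itself lower (−0.16 on the log2 scale).

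LEF1 took 30.1% and 30.8% of the TCF/LEF level per kilobase in shControl and 23.2% and 23.9% in shYEATS2, and TCF7L1 took 9.34% and 9.28% against 16.2% and 12.6%. The ratio of LEF1 to TCF7L1 counts was 3.90 and 4.01 in shControl and 1.74 and 2.29 in shYEATS2. The summed level of the factors per kilobase was 9.54 and 9.98 CPM in shControl and 7.92 and 7.29 CPM in shYEATS2. These sums, shares and ratios carry no test, because an exact permutation test of 2 against 2 libraries has 0.333 as its smallest two-sided p.

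The other genes of the pathway, from 6 lists outside the symbol rule, held 116 genes, of which 98 were tested. Of these, 27 (27.6%) were lower and 29 (29.6%) were higher by edgeR's quasi-likelihood test, against 23.6% and 22.6% of all tested genes. DESeq2 called 20 and 23, and the split was 16 lower and 38 higher with library totals alone. The median log2 fold change was −0.08. Among 12 tested genes of WNT secretion and extracellular handling, 5 were lower (41.7%) and 4 higher (33.3%). PORCN, the membrane enzyme that attaches the lipid to WNT ligands, stood at 32.4 and 35.5 CPM in shControl and 18 and 15.4 CPM in shYEATS2, a log2 fold change of −1.0 ± 0.10. GPC6, a cell-surface heparan sulphate proteoglycan, stood at 37.1 and 36.2 CPM against 11.01 and 10.95 CPM (−1.74 ± 0.10). NKD2 was held in this list although its paralog NKD1 is placed among the cytosolic regulators, so it does not stand for secretion. It moved the other way, from 6.24 and 5.95 CPM to 15.9 and 14.2 CPM (1.32 ± 0.13). The ratio of NKD1 to NKD2 counts was 1.34 and 1.33 in shControl and 0.320 and 0.311 in shYEATS2. WLS, the carrier of WNT ligands through the secretory pathway, was not called (48.6 and 48.2 CPM against 46.7 and 42.8 CPM), and it is named here after its values were seen.

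Of 7 tested further receptors 3 were lower (42.9%, against 23.6% of all tested genes) and 4 were not called by edgeR's quasi-likelihood test. DESeq2 called 2 of the 7 lower. PTK7, a pseudokinase of planar cell polarity, stood at 46.8 and 45.8 CPM in shControl and 20.3 and 19.3 CPM in shYEATS2 (−1.22 ± 0.09 on the log2 scale). RECK, a membrane-anchored protein that with ADGRA2 recognises WNT7 ligands, stood at 43.3 and 46.2 CPM against 25.1 and 27.3 CPM (−0.78 ± 0.08). In the planar cell polarity and non-canonical list 5 of 21 were lower (23.8%) and 7 higher (33.3%), against 23.6% and 22.6% of all tested genes. CELSR1, a polarity cadherin, stood at 9.61 and 10.5 CPM against 17.8 and 17.0 CPM (0.80 ± 0.11). DAAM2, a formin that links Dishevelled to actin, rose by 0.77 ± 0.08 on the log2 scale.

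In the list of Dishevelled and the destruction complex 25 genes were tested, 3 were lower (12%) and 6 were higher (24%). Over all tested genes these shares were 23.6% and 22.6%, so the lower share was smaller in this list and the higher share was near that of all genes. The rises named by size were those of PPP2R5B and PPP2R5A, regulatory subunits of protein phosphatase PP2A (0.62 ± 0.10 and 0.40 ± 0.08), and of CSNK1G3, a membrane-bound casein kinase (0.44 ± 0.07). CTNNB1, which encodes β-catenin and is named here after its values were seen, stood at 473 and 482 CPM in shControl and 374 and 370 CPM in shYEATS2, without overlap. Its log2 fold change was −0.36 ± 0.06 (adjusted p = 3.2e-07 by edgeR's quasi-likelihood test). Of 18 nuclear cofactors 8 were lower (44.4%) and 4 higher (22.2%). TBL1X, a subunit of corepressor complexes, rose by 0.74 ± 0.07 and the corepressor TLE4 by 0.39 ± 0.08, and BCL9L, an adaptor of β-catenin, fell by 0.50 on the log2 scale (standard error 0.06).

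Genes known as targets of β-catenin and TCF in other tissues did not move together. Among the members of the symbol rule that are known feedback targets, AXIN2, NKD1, LEF1 and TCF7 were lower, RNF43 was higher and ZNRF3 was not called. Of 15 tested target genes outside the rule, 3 were lower (20%) and 8 were higher (53.3%), against 23.6% and 22.6% of all tested genes. MMP7, a matrix metalloprotease, stood at 22.6 and 24.3 CPM in shControl and at 4.82 and 3.65 CPM in shYEATS2 (−2.41 ± 0.13). CCN4, a matricellular protein, stood at 203 and 202 CPM against 56.6 and 55.2 CPM (−1.86 ± 0.07). MYC went the other way, from 70.4 CPM in both shControl libraries to 159 and 133 CPM in shYEATS2 (1.07 ± 0.07). NOTUM, a secreted enzyme that removes the lipid from WNT ligands and a further known target, stood at 5.75 and 5.19 CPM against 1.46 and 1.19 CPM (−2.00 ± 0.23), and it is named here after its values were seen. Each of these 4 genes had an adjusted p under 0.05 by edgeR's quasi-likelihood test and no overlap between the conditions.

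**Figure D4:**
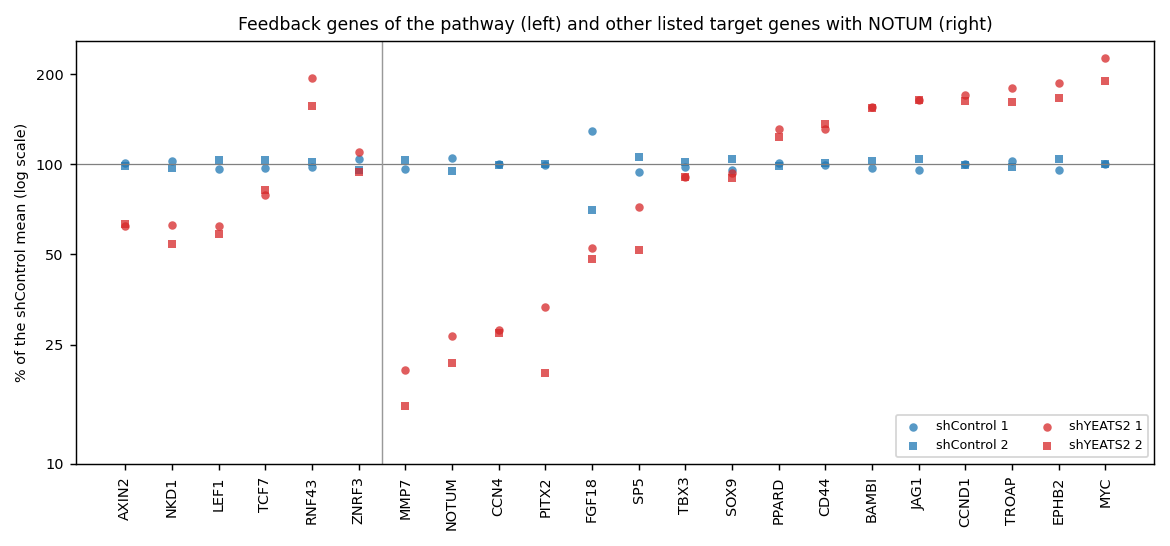
Level of genes known as targets of the pathway in each library, as a percentage of the shControl mean on a log axis, with feedback genes among the members on the left and the other listed targets and NOTUM, ordered by log2 fold change, on the right. Both shYEATS2 libraries of AXIN2, NKD1, LEF1 and TCF7 lie below 100%, as do those of MMP7, NOTUM and CCN4, and those of RNF43 and MYC lie above it.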

How the data were processed

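RNA-seq counts of 4 BICR10 libraries, 2 shControl and 2 shYEATS2, were used as the authors deposited them: raw counts of read pairs per Ensembl gene, made by the authors with STAR on GRCh38 and HTSeq from a stranded mRNA kit and pairs of 150 bp reads, per the labels. The annotation release and strand setting are not given in the sources used here. The tallies of pairs given to no gene, 7.64% to 8.57% of those tallied, were left out. Members were taken by gene symbol, and the members and the gene lists were chosen with earlier results of these data known.

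Counts were filtered by filterByExpr, scaled by TMM and tested in R 4.3.3 with edgeR 4.0.16 (quasi-likelihood test, robust, Benjamini-Hochberg adjustment over the 17058 genes tested). Each ± is the standard error of the log2 fold change. Alternatives were DESeq2 1.42.0, limma-voom 3.58.1, other scalings and filters, thinned counts, a replicate block and each library left out. The fitting was run on simulated data in which few genes changed and all genes shared the same dispersion. The real libraries differ in this, so that run does not measure the errors of these fits. Of the genes, 60295 had an identifier in GENCODE release 44, which gave positions and exon lengths, and all 60 members were matched. Promoters are from RefSeq (GRCh38.p14).

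Called members are named with each library's CPM, and with full statistics from a mean of 1 CPM. Uncalled members are named where they are the most abundant of their family or a paralog of a called one. Of the other lists, up to 3 called genes with the largest change, a mean of at least 10 CPM and no overlap between conditions are named. One gene that this rule names is not reported here. WLS, CTNNB1 and NOTUM were named after their values were seen.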

Additional observations from a re-analysis of the deposited data

How the results depend on the processing

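The number of members called lower (16) stayed between 11 and 17 over the alternatives except with a change of at least 2-fold (2). The number called higher (8) was 5 without a filter, 2 with DESeq2, 3 at an adjusted p under 0.01, 2 with at least 2-fold, and 4 to 10 when each library was left out. For the other pathway genes, 27 lower became 16 with library totals alone, 17 with thinned counts and 8 with at least 2-fold, and 29 higher became 38 with library totals and 4 with at least 2-fold. Over all genes, 4019 lower became 2567 with library totals, 2344 with thinned counts and 631 with at least 2-fold, and 3857 higher became 5441 with library totals, 2393 with DESeq2, 2320 with thinned counts and 1022 with at least 2-fold. With library totals alone the log2 ratios of the summed families were −0.051 for WNT ligands, −0.20 for Frizzled receptors, −0.033 for antagonists and −0.23 for TCF/LEF factors. The causes were not tested. The log2 fold changes that turned sign belonged to members that were not called: FZD3 with thinned counts (0.28), WNT3 with library totals (0.11) and thinned counts (0.20), DKK3 with library totals (0.026), WNT5A without a filter (−0.045) and with DESeq2 (−0.0066), ZNRF3 without a filter (−0.00077), and WNT10B without a filter (−0.043), with DESeq2 (−0.043) and with the replicate block (−0.080). When each library was left out, WNT10B ran from −0.52 to 0.59, WNT2B from −0.52 to 0.42, WNT5A from −0.038 to 0.031 and ZNRF3 from −0.11 to 0.12. These fits leave 1 library in a condition, assumed to vary like the others. The library numbers gave no sign of pairing (across genes, library 1 minus library 2 in shControl and in shYEATS2 had a correlation of −0.0184), and with the replicate block 16 members were lower and 7 higher, FZD5 losing its call. Depth limits the 23 untested members, and LGR6 and WNT10B could be tested in 11 of the 13 fits and FZD3 and WNT6 in 12.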
